A study of Oreochromis niloticus with 12 samples.

Results

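The muscle contractile and actin genes of Nile tilapia (Oreochromis niloticus) were examined in gonads of fish treated to suppress SF1 (nr5a1), a transcription factor known for switching on steroid-producing enzymes. The genes were chosen by symbol, with earlier results of these data known. Their names begin like those of the actins, myosin heavy and light chains, myosin light chain kinases, troponins, tropomyosins, myosin-binding proteins, titin, desmins, leiomodins, caldesmon, calponins, transgelins and parvalbumins. They numbered 84 of the 22283 genes in the table and lay on 49 scaffolds. RNA sequencing covered 12 libraries in 4 groups of 3, namely control and SF1-suppressed testis and control and SF1-suppressed ovary. The labels state that eggs took up antisense RNA fragments targeting SF1 before they were fertilised, and control eggs received transfection reagent with either ultrapure water or a blank plasmid. All fish were reared for 30 days in a small water system, in a culture period of 150 days, and total RNA came from whole gonad tissue at sexual maturity. The labels do not say which antisense construct or which control a library came from, or whether a library was a single fish or a pool. The p-values thus reflect no more than the spread of these samples, and that spread may be technical.

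In striated muscle, myosin heavy chains pull on actin filaments, and calcium binding to troponin C shifts tropomyosin along the filament to expose the myosin sites. In smooth muscle the switch lies on myosin instead, because myosin light chain kinase phosphorylates the regulatory light chain. Calponin, caldesmon and transgelin bind the smooth muscle actin filament, and desmin forms its intermediate filaments. All other cells use cytoplasmic actin and non-muscle myosin for shape, movement and division. In a vertebrate gonad, contractile cells are known in the wall of the testis tubules, around ovarian follicles and in blood vessels.

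Libraries held between 36.8 and 60.5 M counts. The labelled tissues matched their markers, since a list of 5 oocyte genes summed to at least 2304 FPKM in each ovary library and to at most 65.4 FPKM in each testis library. FPKM relate a gene's fragments to its length and to the size of the library. In testis the targeted gene went against the label in suppressed replicates 1 and 2, where it was above every control. In replicate 3 it was below every control. The FPKM of nr5a1 was 9.26, 11.8 and 17.9 in control testis, 23.7 and 24.3 in the testis libraries labelled SF1-suppressed replicates 1 and 2, and 6.34 in replicate 3. In ovary it was 1.37, 1.95 and 2.80 in controls and 1.35, 2.95 and 1.73 in libraries labelled SF1-suppressed. Replicate 3 of suppressed testis stood apart from replicates 1 and 2 in many muscle genes, so testis results are given with and without it. That choice was made from values of these same genes, so p-values without replicate 3 are conditional on it. The suppressed testis libraries then left are those with nr5a1 above every control.

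Many of the 84 genes were barely transcribed. A gene was tested where 3 or more libraries of a comparison held it at 1 FPKM or above. A total of 45 were tested in some comparison, and the other 39 never exceeded 2.43 FPKM in any library. Of all 22283 genes, 6901 did not reach the filter over the 12 libraries. The genes in no test were 16 of 20 troponins, 5 of 7 sarcomeric myosin heavy chains, all 5 sarcomeric light chains, 5 of 8 parvalbumins, 2 of 3 light chain kinases and 6 genes of other classes. The highest sarcomeric light chains, an MYL2 copy and mylz3, stayed under 0.9 FPKM in every library. The troponin-interacting kinase tnni3k and the light chain kinase mylk4a were under 0.6 FPKM throughout. No read was counted for 2 genes, and 19 genes with reads in testis had none in any ovary library.

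The abundant genes were of 3 classes. The 12 cytoplasmic actin and non-muscle myosin genes together gave 615 ± 20.1 FPKM in control testis and 1981 ± 12.3 in control ovary (SD, n = 3). The 10 smooth muscle genes gave 759 ± 200.2 FPKM in control testis and 635 ± 56.8 in control ovary. The 5 genes named for sarcomeric alpha actins gave 761 ± 147 and 225 ± 39.5 FPKM, almost all of it from the gene named ACTA1 (ENSONIG00000019130). In the deposited annotation ACTA1 carries the KEGG ortholog code K12313, whereas acta1a and the 3 ACTC1 copies carry K12314. Actin genes are close to identical in coding sequence, so reads of these copies may have been split between them. Whether ACTA1 is a sarcomeric or a smooth muscle form could not be settled, so the sum of this class may not be sarcomeric. Markers of striated muscle outside the members were uneven. The full list of 52 genes summed to 233.1 to 261 FPKM in control testis, 211 to 264 in suppressed testis, 1270.4 to 1323 in control ovary and 1583 to 1673 in suppressed ovary. The enolase eno3 supplied most of it in ovary (1207 ± 23.1 FPKM in controls), and in control testis eno3 (68.1) and the myoglobin gene Mb (65.7) were followed by myoz2a (16.7), myom1a (11.4) and actn2b (8.80). By contrast 12 other genes, picked after their values were seen (ckma, ckmb, casq1a, casq1b, ryr1a, ryr1b, cacna1sb, tcap, pgam2, mylpfa, mylpfb and myog), summed to 3.46 to 5.64 FPKM in control testis and 4.72 to 5.70 in suppressed testis. In ovary the same sum was 1.19 to 2.40 in controls and 1.32 to 1.38 in suppressed libraries, and casq1a had no read in either suppressed group.

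**Figure D1:**
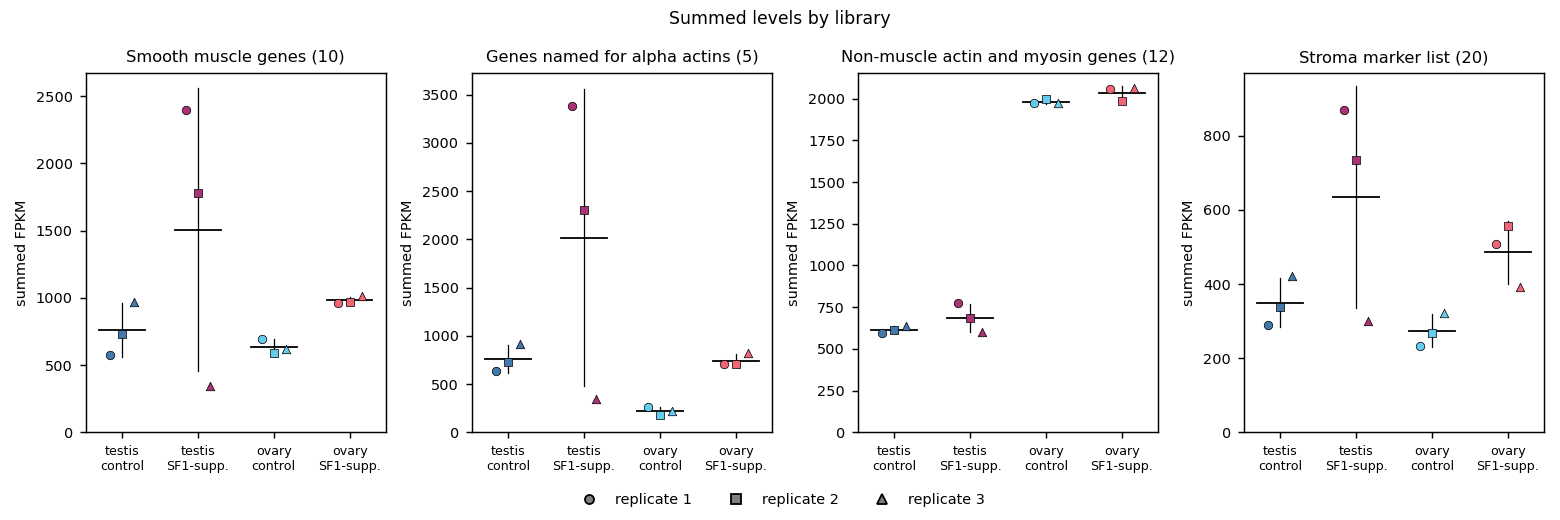
Summed FPKM of 3 classes of muscle and actin genes and of the stroma marker list in each library (points, shaped by replicate), with the group mean (horizontal line) and SD (vertical line, cut at 0), n = 3. Suppressed ovary libraries lie above controls for smooth muscle genes and alpha actins, and in suppressed testis replicates 1 and 2 of these classes lie above and replicate 3 below all controls.

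The ovary was compared first, because its replicates were tight. Differences were tested with edgeR's quasi-likelihood F test and Benjamini-Hochberg adjustment over all genes tested, and the threshold was an adjusted p of 0.05. In libraries labelled SF1-suppressed, 16 of the 30 genes tested rose and 4 fell, and 10 did not pass. Among all 12557 genes tested in ovary, 35.9% passed, 18.1% higher and 17.9% lower. The median log2 change of the 30 genes was 0.23, against 0.00 over all genes. When libraries were scaled by total count alone, the share of higher calls among all calls moved from 50.3% to 36%, and 13 muscle and actin genes were then called higher. The FPKM did not overlap between the groups for 15 genes that were higher and 4 that were lower, and over all genes tested for 50%, of which 18.5% higher and 31.5% lower. In bulk tissue, fewer cells of a type and less RNA per cell cannot be told apart.

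The alpha actins rose in ovary. acta1a (scaffold GL831280.1, 203308 to 208798), named for the skeletal alpha actin of zebrafish, stood at 1.45, 0.453 and 1.46 FPKM in control ovary and at 15.0, 17.9 and 30.9 in suppressed ovary. The groups lay far apart, and the change was 4.31 on the log2 scale (SE 0.40, adjusted p = 2.8e-05). ACTA1 (GL831209.1, 2410536 to 2413825) was at 254, 179 and 217 FPKM in controls and at 667, 669 and 760 in suppressed libraries. Each suppressed library was well above each control, a 3.39-fold rise (log2 1.76, SE 0.11, adjusted p = 2.28e-06). An ACTC1 copy (ENSONIG00000005683), named for cardiac alpha actin, went from 8.06, 4.77 and 6.95 FPKM to 24.9, 16.7 and 30.6. It rose by 1.94 on the log2 scale (SE 0.23, adjusted p = 0.000157) with no overlap between groups. A different ACTC1 copy (ENSONIG00000001389), at 1.07, 1.46 and 0.961 FPKM in controls and 1.11, 0.583 and 0.565 in suppressed ovary, did not pass (adjusted p = 0.243). The rises of acta1a, ACTA1 and the first ACTC1 copy passed whichever library was left out.

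**Figure D2:**
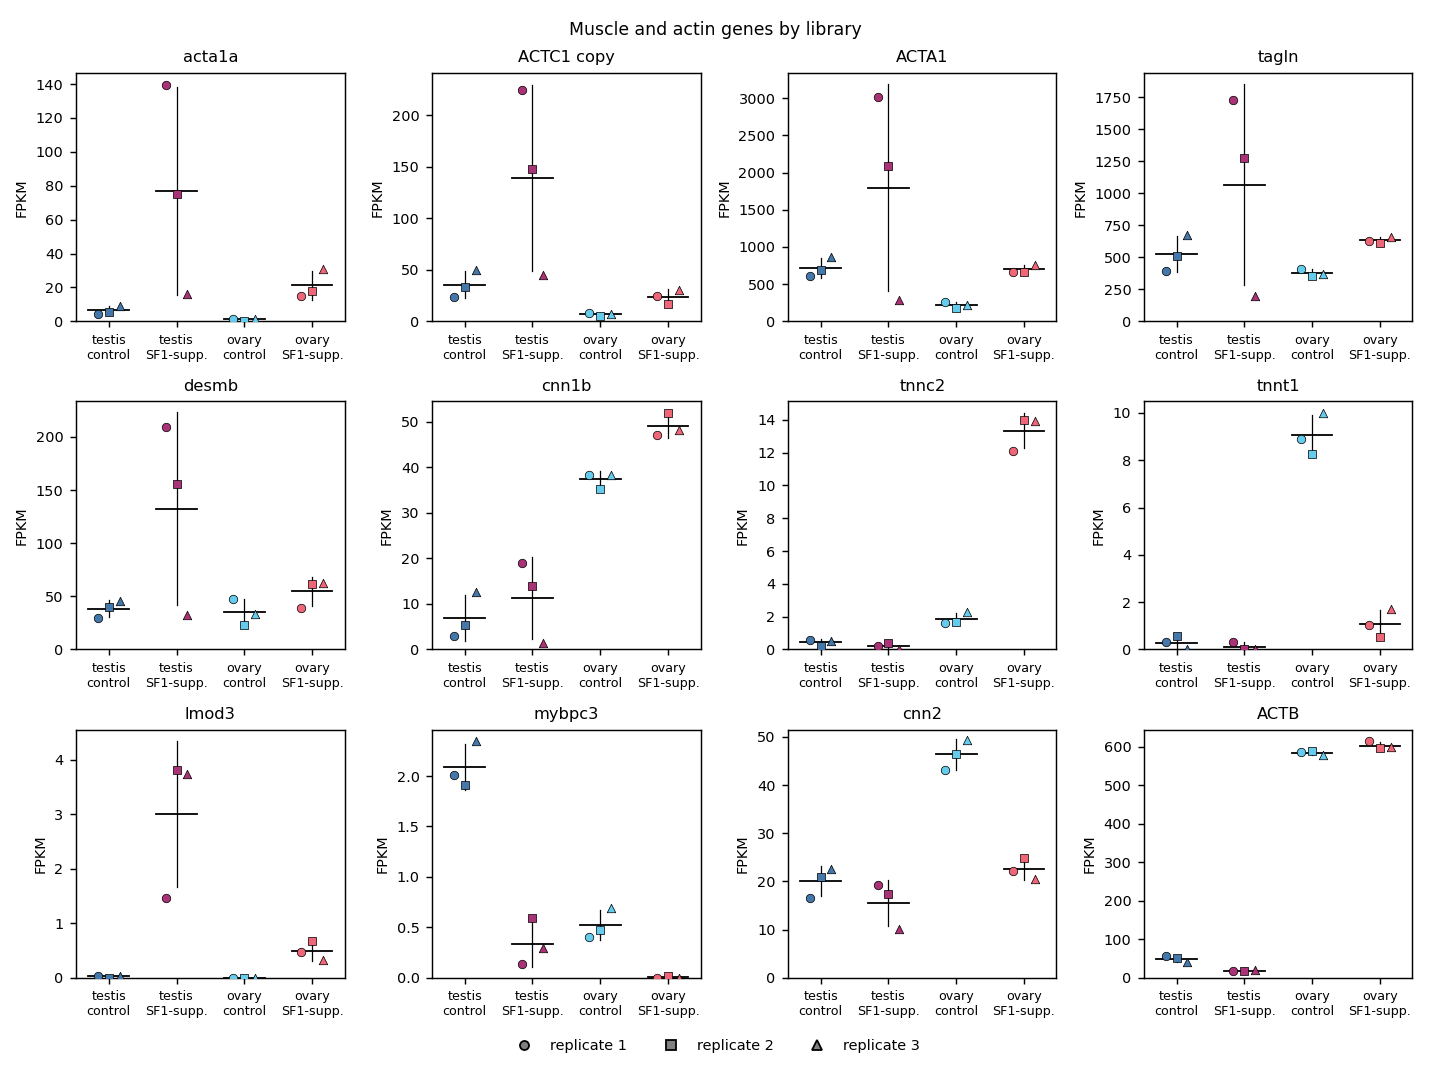
FPKM of 12 muscle and actin genes in each library (points, shaped by replicate), with the group mean (horizontal line) and SD (vertical line, cut at 0), n = 3, on linear axes from 0 that differ between panels. acta1a lies higher in all suppressed libraries of both tissues than in their controls, tnnc2 rises and tnnt1 falls in ovary, and ACTB falls in testis.

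Smooth muscle genes also rose in ovary. Among 9 tested there were 7 that rose and 1 that fell, with a median log2 change of 0.62. tagln, or transgelin, an actin cross-linking protein abundant in smooth muscle, went from 411, 356 and 371 FPKM to 626, 613 and 660. The replicates were tight in both groups, and the 1.75-fold rise had an adjusted p of 9.37e-06. The smooth muscle myosin heavy chain myh11a was at 20.9, 16.5 and 18.2 FPKM in controls and 26.7, 28.9 and 28.0 in suppressed ovary (log2 0.66, SE 0.08, adjusted p = 0.000142). It overlaps an NDE1 copy on the opposite strand by 785 bases, and that gene was not higher in suppressed ovary (64.6, 55.7 and 57.8 against 48.4, 55.5 and 50.6 FPKM). The regulatory light chain gene myl9a, the substrate of light chain kinase, rose 1.40-fold, from 167, 147 and 145 FPKM to 211, 203 and 199.7 (adjusted p = 0.000237). mylka, the kinase itself, rose 2.17-fold, from 2.95, 1.31 and 1.96 FPKM to 3.73, 4.76 and 4.38 (adjusted p = 0.00516).

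The thin filament regulators of smooth muscle moved by unequal amounts. cnn1b, a calponin, was at 38.4, 35.2 and 38.3 FPKM in controls and 47.0, 51.9 and 48.2 in suppressed ovary (log2 0.47, SE 0.07, adjusted p = 0.000537). It overlaps elof1 on the opposite strand by 1544 bases, and elof1 was itself at 24.5, 26.2 and 23.3 FPKM in controls and 35.2, 27.9 and 37.0 in suppressed libraries, so part of either signal may belong to the other. cald1b, a caldesmon, rose 2.56-fold from 1.09 ± 0.385 to 2.68 ± 0.0421 FPKM (adjusted p = 0.00321), while a second caldesmon, the CALD1 copy, had a log2 difference of 0.21 and did not pass (adjusted p = 0.309). lmod1b, a leiomodin that nucleates actin filaments in smooth muscle, rose by 0.62 (SE 0.18, adjusted p = 0.0217). desmb, a desmin, rose by 0.72 (SE 0.24, adjusted p = 0.042), but its groups overlapped, with 47.8, 23.1 and 33.8 FPKM in controls and 39.2, 61.7 and 63.0 in suppressed libraries. lmod1b lost its call without control replicate 2 or 3 or suppressed replicate 1 or 2 (adjusted p up to 0.0761). desmb lost it without control replicate 2 or 3 or suppressed replicate 2 or 3 (up to 0.136), under total-count scaling (0.065) and with DESeq2 (0.0972).

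A second smooth muscle myosin gene moved the other way from myh11a. myh11b was at 4.23, 3.18 and 3.97 FPKM in control ovary and at 0.547, 1.08 and 0.944 in suppressed ovary. No suppressed library came near a control, and the fall was 2.07 on the log2 scale (SE 0.23, adjusted p = 8.15e-05). The scarce copy fell while the abundant copy rose.

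The troponins moved in opposite directions. tnnc2, the calcium-binding subunit named for fast skeletal muscle, was at 1.59, 1.70 and 2.26 FPKM in control ovary and at 12.1, 14.0 and 13.9 in suppressed ovary. The 7.45-fold rise (adjusted p = 9.14e-06) separated the groups fully. tnnt1, a troponin T that anchors the complex to tropomyosin, was at 8.91, 8.25 and 9.98 FPKM in controls and at 1.03, 0.512 and 1.71 in suppressed libraries. It fell by 2.97 on the log2 scale (SE 0.36, adjusted p = 0.000158). The inhibitory subunits, troponin I, were not tested in ovary, where none of their genes exceeded 0.741 FPKM in any library.

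Tropomyosins rose slightly in ovary, all 3 of those tested. TPM2 was at 38.2, 22.6 and 23.2 FPKM in controls and 40.6, 39.7 and 40.9 in suppressed ovary (log2 0.60, SE 0.17, adjusted p = 0.0221). tpm4b rose 1.22-fold (adjusted p = 0.0146) and tpm2 1.19-fold (adjusted p = 0.0266). These calls depended on single libraries. TPM2 lost its call without control replicate 2 or 3 or suppressed replicate 1 or 3 (adjusted p up to 0.0807), tpm4b without control replicate 3 or suppressed replicate 1 or 3 (up to 0.0679), and tpm2 without control replicate 1 or suppressed replicate 1 or 3 (up to 0.109). tpm2 also failed to pass under total-count scaling (adjusted p = 0.082). The tpm2 gene overlaps a rab8a copy on the same strand by 124 bases.

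Among 10 cytoplasmic genes tested in ovary, 1 rose and 2 fell, or 30% past the test against 35.9% of all genes. cnn2, a calponin of non-muscle cells, was at 43.1, 46.5 and 49.4 FPKM in controls and at 22.2, 24.9 and 20.5 in suppressed libraries. It fell by 0.97 on the log2 scale (SE 0.09, adjusted p = 2.22e-05), the opposite direction from cnn1b. myh9b, a non-muscle myosin heavy chain, fell by 0.59 (SE 0.13, adjusted p = 0.0067) from 35.0 ± 4.86 to 22.2 ± 4.46 FPKM. myl12.1, a non-muscle regulatory light chain and the most abundant member in ovary, rose 1.14-fold with overlapping groups (903 ± 31.4 to 977 ± 53.2 FPKM, adjusted p = 0.0339), and the call was lost without replicate 1 or 3 of either group (adjusted p up to 0.154) and under total-count scaling (0.138). ACTB, the cytoplasmic beta actin, was at 585, 589 and 579 FPKM in controls and 614, 595 and 598 in suppressed ovary and did not pass (adjusted p = 0.0794).

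Some ovary changes lay below the filter. lmod3, a leiomodin named for striated muscle, had no read in the 3 control ovary libraries and was at 0.465, 0.681 and 0.331 FPKM in the suppressed ones. Against a limit of 3 counts over the control group, that is at least 47.5-fold higher. mybpc3, a myosin-binding protein named for heart muscle, was at 0.401, 0.475 and 0.695 FPKM in controls and at 0, 0.0158 and 0 in suppressed libraries. An MYH13 copy (ENSONIG00000009593), a sarcomeric myosin heavy chain, was at 0.0746, 0.0596 and 0.124 FPKM in controls and at 0.550, 0.407 and 0.762 in suppressed ovary. With the FPKM filter dropped, these 3 and lmod2b passed as well. They were named after their values were seen.

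Testis allowed 41 genes to be tested, and 5 rose, 6 fell and 30 remained short of the threshold. Over all 14368 genes tested in testis, 10.9% passed, 5.25% higher and 5.68% lower. The median log2 change of the 41 genes was 0.13, against 0.00 over all genes. Total-count scaling shifted the median of all genes to -0.12 and the share of higher calls from 48.1% to 31.9%, and 4 muscle and actin genes were then called higher. The counts depended on single libraries. Without control replicates 1, 2 and 3 the genes called higher numbered 1, 1 and 2, and those called lower numbered 2, 1 and 1. Without suppressed replicate 2 they numbered 3 higher and 4 lower, and without suppressed replicate 1 they numbered 4 and 4. Without suppressed replicate 3 they numbered 15 higher and 7 lower, where 20.2% of all genes passed, 9.72% higher and 10.5% lower. For the other fits that left out a library, no share of all genes is given here. A loss of calls in those fits thus cannot be told from a loss over all genes.

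In testis lmod3 rose and ACTB fell, and both passed whichever library was left out. lmod3 (GL831137.1, 4437593 to 4439798) was at 0.0347, 0 and 0.0316 FPKM in control testis and at 1.47, 3.81 and 3.74 in suppressed testis, with 3 or fewer reads in each control. It rose by 6.83 on the log2 scale (SE 0.77, adjusted p = 0.00208), a size that depends on the few control reads. The gene reached the filter only through the suppressed libraries. ACTB (GL831164.1, 4968591 to 4973936) was at 56.9, 51.7 and 39.9 FPKM in controls and at 17.1, 17.4 and 19.1 in suppressed testis. All 3 suppressed libraries, replicate 3 included, were below every control, and the fall was 1.36 on the log2 scale (SE 0.17, adjusted p = 0.00298).

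The alpha actins rose in testis by amounts that varied widely between libraries. acta1a was at 4.29, 5.76 and 9.08 FPKM in controls and at 139, 75.1 and 16.2 in suppressed replicates 1, 2 and 3. Every suppressed library exceeded every control (log2 3.69, SE 0.69, adjusted p = 0.0156), although the call was lost without suppressed replicate 2 or any of the controls, with adjusted p up to 0.0879. The ACTC1 copy ENSONIG00000005683 was at 23.8, 33.0 and 50.0 FPKM in controls and at 225, 148 and 44.8 in suppressed testis. It rose by 2.07 (SE 0.51, adjusted p = 0.0404) with suppressed replicate 3 among the controls, and its call was kept in 1 of 6 fits, the one without that replicate (adjusted p up to 0.162 in the others), and lost under total-count scaling (0.0558). ACTA1 was at 604, 691 and 860 FPKM in controls and at 3023, 2084 and 291 in suppressed testis, so replicate 3 lay below every control, and it did not pass (log2 1.41, SE 0.64, adjusted p = 0.189).

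Of the smooth muscle genes in testis, 0 of 8 tested passed by edgeR with all libraries, 1 at an unadjusted p under 0.05 and 1 by DESeq2 (desmb), while 5 of 8 were higher without suppressed replicate 3. tagln stood at 393, 506 and 676 FPKM in controls and at 1731, 1272 and 198 in suppressed replicates 1, 2 and 3. desmb stood at 29.6, 40.2 and 45.7 in controls and at 209, 156 and 32.1 in suppressed testis. Both were far above the controls in replicates 1 and 2 and inside or below them in replicate 3. Without replicate 3 the log2 changes were 1.60 for tagln (SE 0.19, adjusted p = 0.000158), 2.32 for desmb (SE 0.16, adjusted p = 3.37e-06), 1.29 for myl9a (SE 0.16, adjusted p = 0.000223), 0.88 for myh11a (SE 0.21, adjusted p = 0.0116) and 1.32 for cnn1b (SE 0.41, adjusted p = 0.0424). ACTA1 also passed then, at 1.91 (SE 0.17, adjusted p = 2.05e-05), as did tpm4b, TPM2, myl6 and tagln2 as higher and pvalb5 as lower. These p-values are conditional on leaving out replicate 3 after the values were seen. The elof1 gene that overlaps cnn1b was at 8.42, 9.53 and 10.7 FPKM in control testis. It was at 19.8, 21.7 and 9.71 in suppressed replicates 1, 2 and 3, so part of the cnn1b signal may belong to elof1. Relative to the control mean, the median log2 value (FPKM plus 1) of the 8 smooth muscle genes was 1.21, 1.03 and -0.88 in suppressed replicates 1, 2 and 3.

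Other testis changes were small or in scarce genes. myl12.1 rose from 282, 281 and 280 FPKM to 385, 360 and 371 (log2 0.52, SE 0.10, adjusted p = 0.016). Its controls were nearly equal and all suppressed libraries lay above them, yet the call was lost without any of the controls (adjusted p up to 0.104). Of 5 non-muscle myosin heavy chains tested, 2 fell and the other 3 did not pass. The myh10 copy ENSONIG00000018235 went from 45.6, 47.4 and 50.6 FPKM to 31.9, 31.0 and 28.1 (log2 -0.55, SE 0.09, adjusted p = 0.0111), a call that did not hold when control replicate 2 or 3 was left out (adjusted p up to 0.0696). myh14 went from 7.49, 8.30 and 8.22 FPKM to 5.87, 5.80 and 4.98 (adjusted p = 0.0397), a call kept in 1 of 6 fits, the one without suppressed replicate 3 (adjusted p up to 0.179 in the others). tagln3b, a transgelin known from the nervous system in mammals, fell from 4.55, 6.16 and 5.20 FPKM to 2.55, 1.07 and 1.66 (adjusted p = 0.0492), and its call was lost without suppressed replicate 2 or any of the controls (adjusted p up to 0.189). Without the FPKM filter, neither myh14 (0.0635) nor tagln3b (0.0585) passed.

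The sarcomere-associated genes past the test in testis lay near the filter. mybpc3 was at 2.01, 1.91 and 2.34 FPKM in controls and at 0.132, 0.591 and 0.292 in suppressed testis, a fall of 2.52 on the log2 scale (SE 0.47, adjusted p = 0.0161). mybpc1, its relative named for slow skeletal muscle, went from 1.07, 1.07 and 1.09 to 0.263, 0.550 and 0.268 FPKM (log2 -1.48, SE 0.33, adjusted p = 0.0293). pvalb4, a parvalbumin that buffers calcium, went from 0.679, 0.735 and 0.869 to 2.19, 2.34 and 2.16 FPKM (log2 1.66, SE 0.28, adjusted p = 0.0118). The 3 genes showed no overlap between groups. Each passed the filter through 1 group alone. Each lost its call without control replicate 1 or 2, mybpc3 and mybpc1 also without control replicate 3, and mybpc1 also without suppressed replicate 1, with adjusted p up to 0.0705 for mybpc3, 0.12 for mybpc1 and 0.0782 for pvalb4. Across the 41 genes, 4 were higher and 10 lower in all suppressed libraries than in any control, against 12.5% and 26.4% of all genes tested, or 39% in either direction. Among them lmod3 and pvalb4 were under 1 FPKM in every control. In every suppressed library mybpc1, mybpc3 and a tnni2a.4 copy were under 1 FPKM. The filter alone thus kept the groups of these genes from overlapping.

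Ratios of FPKM between genes of a library do not depend on its scaling. The pairs were chosen after the values were seen and are given without a test. acta1a amounted to 0.711%, 0.834% and 1.06% of ACTA1 in control testis and to 4.61%, 3.60% and 5.56% in suppressed testis. Replicate 3 was the highest of the suppressed libraries on this scale, although its level of both genes was the lowest. In ovary the same ratio was 0.570%, 0.254% and 0.672% in controls and 2.26%, 2.68% and 4.06% in suppressed libraries. desmb was 7.54%, 7.95% and 6.76% of tagln in control testis and 12.1%, 12.3% and 16.2% in suppressed testis, whereas in ovary the groups overlapped (11.6%, 6.50% and 9.13% against 6.26%, 10.1% and 9.54%). ACTA1 was 61.7%, 50.2% and 58.6% of tagln in control ovary and 107%, 109% and 115% in suppressed ovary, and in testis the groups overlapped (127% to 154% against 147% to 175%). myh11a relative to tagln was lower in suppressed testis replicates 1 and 2 (5.22% and 5.49%) than in controls (8.34%, 8.46% and 9.29%) and higher in replicate 3 (11.8%).

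**Figure D3:**
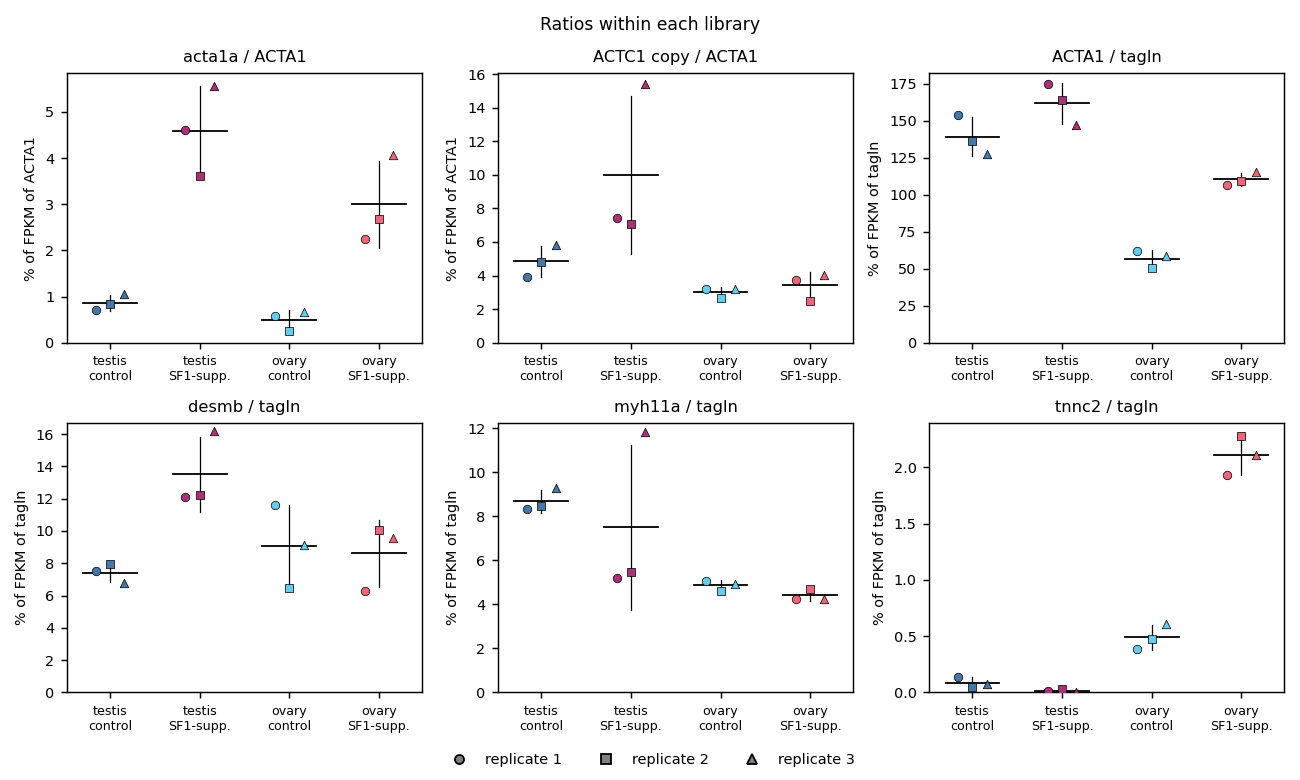
FPKM of 1 gene as a percentage of another in the same library (points, shaped by replicate), with the group mean (horizontal line) and SD (vertical line, cut at 0), n = 3. The acta1a to ACTA1 ratio is higher in all suppressed libraries than in controls of the same tissue, including suppressed testis replicate 3 at 5.56%.

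Testis and ovary were then set side by side. Of 26 genes tested in both tissues, 3 rose in both (acta1a, the ACTC1 copy and myl12.1) and 0 fell in both. Over the 11586 genes tested in both, 1.74% rose and 1.67% fell in both. Whether the testis change differed from that in ovary was tested over all 12 libraries. Among 45 genes tested, 3 were higher and 4 lower, where 15.5% of all 15382 genes passed, 7.33% higher and 8.15% lower. The 45 included an MYH13 copy (ENSONIG00000001739), pvalb4, pvalb5, a TNNT1 copy and a tnni2a.4 copy. These had no read in any ovary library, so there was no ovary change to compare and their tests could not pass. ACTB had the clearest difference, since it fell in testis and not in ovary (log2 -1.51, SE 0.19, adjusted p = 0.00023). tnnc2, which rose in ovary, was at 0.549, 0.236 and 0.534 FPKM in control testis and 0.223, 0.415 and 0 in suppressed testis, and differed by -3.84 (SE 0.87, adjusted p = 0.0109). myh11b, which fell in ovary, was at 0.371, 0.485 and 0.448 FPKM in control testis and 0.251, 0.375 and 0.398 in suppressed testis, and differed by 1.81 (SE 0.38, adjusted p = 0.00733).

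The other 4 differences involved an ovary group with very few reads. myh14 gave 0, 8 and 4 counts in control ovary and 19, 38 and 41 in suppressed ovary, against at least 1528 counts in each testis library (log2 -3.38, SE 0.54, adjusted p = 0.00128). The differences of mybpc3 (3.77, SE 1.03, adjusted p = 0.0277), mybphb (-3.55, SE 1.04, adjusted p = 0.0375) and mybpc2b (3.17, SE 0.98, adjusted p = 0.0471) depend in size on counts at or near 0 in ovary. mybphb and mybpc2b are further myosin-binding proteins. ACTB, myh14, tnnc2 and myh11b passed in all 12 fits that left out a library, while mybpc3 passed in 5, mybphb in 3 and mybpc2b in 2 (adjusted p up to 0.0712, 0.109 and 0.102). Without suppressed testis replicate 3, 9 genes were higher and 4 lower, where 19.9% of all genes passed, 10.4% higher and 9.44% lower.

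**Figure D4:**
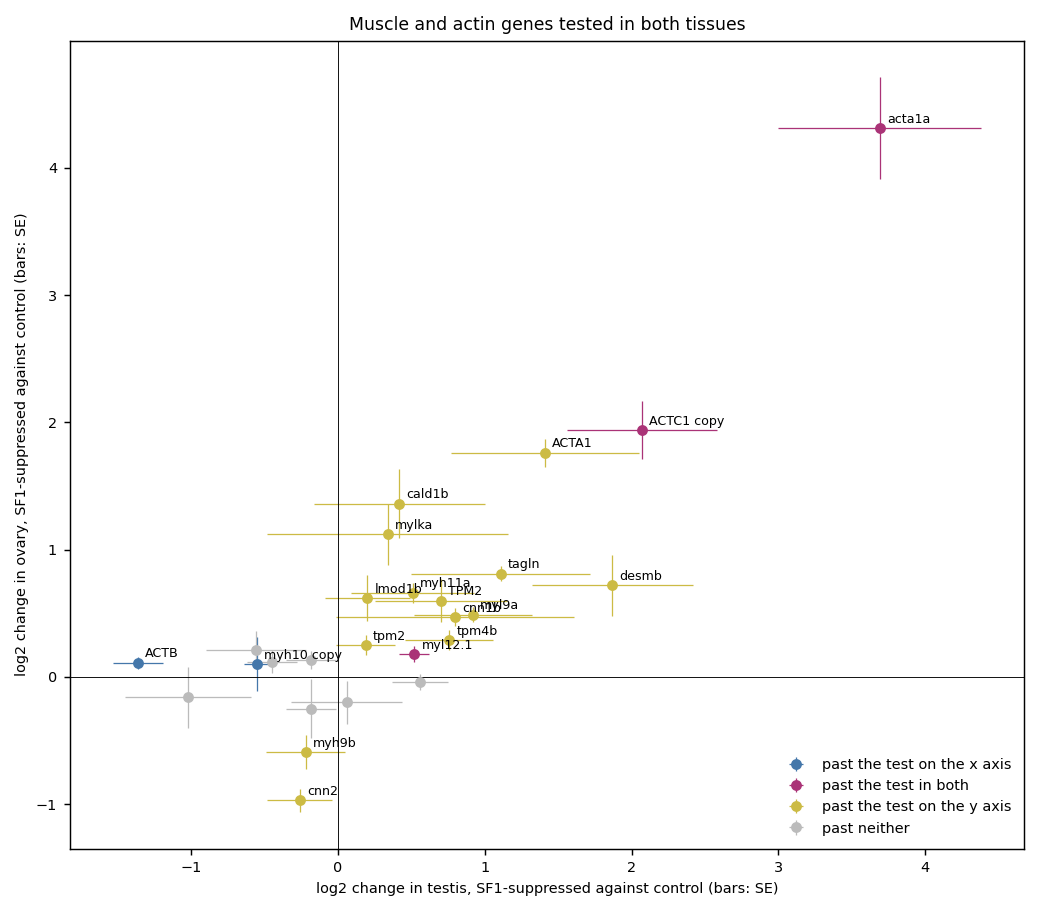
Log2 change between SF1-suppressed and control libraries in testis (x axis) and ovary (y axis) for the 26 genes tested in both, with SE bars and colours for the tests passed. acta1a and the ACTC1 copy are past the test in both, ACTB and a myh10 copy in testis alone, and cnn2 and myh9b fall in ovary alone; a difference between the tissues passed its own test for ACTB among the genes drawn.

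Between control testis and control ovary, 39 genes were tested, of which 20 were higher in testis, 13 lower and 6 did not pass. Over all 14719 genes tested, 86.3% passed, 44.1% higher and 42.3% lower, so the share of 84.6% among these genes was near the background. The FPKM did not overlap for 20 genes that were higher and 11 that were lower, and over all genes for 88%, of which 48.2% higher and 39.8% lower. Non-muscle myosins differed between the tissues in both directions. The MYH9 copy was at 2.98, 3.56 and 3.72 FPKM in testis and 158, 124 and 142 in ovary (log2 -5.55, SE 0.14, adjusted p = 9.9e-10). The 2 myh10 copies were higher in testis, by 3.13 (SE 0.16) and 3.29 (SE 0.20) on the log2 scale. myh14 was at 7.49, 8.30 and 8.22 FPKM in testis and under 0.03 in each ovary library (adjusted p = 1.35e-08). ACTB was lower in testis by 3.74 (SE 0.15, adjusted p = 1.56e-08), cnn3b, a calponin, by 2.62 (SE 0.10), and myl12.1 by 1.87 (SE 0.07).

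Of the smooth muscle genes, 4 of 9 were higher in testis and 3 lower, or 77.8% past the test. Over all genes tested between control tissues 86.3% passed, 44.1% higher and 42.3% lower. On the log2 scale cald1b (1.49, SE 0.42), myh11a (1.13, SE 0.20), lmod1b (0.82, SE 0.22) and the CALD1 copy (0.66, SE 0.23) were higher in control testis. The kinase mylka was higher there too, at 7.57, 10.9 and 21.8 FPKM against 2.95, 1.31 and 1.96 (adjusted p = 0.000237). myh11b (-3.30, SE 0.19), cnn1b (-2.61, SE 0.41) and myl9a (-0.48, SE 0.13) were higher in control ovary. The CALD1 copy lost its call without control testis replicate 3 or control ovary replicate 1 or 2 (adjusted p up to 0.0717), and myl9a under total-count scaling (adjusted p = 0.0734). Alpha actins were higher in testis, acta1a by 2.31 (SE 0.44), the ACTC1 copy by 2.24 (SE 0.27) and ACTA1 by 1.54 (SE 0.15). Of the tropomyosins, tpm4b was lower in testis by 1.27 (SE 0.12, adjusted p = 4.91e-06).

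Several sarcomeric genes at low level were higher in testis. The myosin-binding protein genes mybpc1, mybpc2a, mybpc2b, mybpc3 and mybphb, like myh7bb, myh14, tagln3b, pvalb5 and a tnni2a.4 copy, were under 1 FPKM in control ovary and entered the test through testis alone, so they had to differ. myh7bb, a slow-type myosin heavy chain, was at 1.82, 2.12 and 2.69 FPKM in control testis and at most 0.121 in control ovary (log2 4.33, SE 0.27, adjusted p = 2.97e-07). mybpc2a, named for fast muscle, was at 4.45, 4.79 and 4.62 FPKM in testis and at most 0.0169 in ovary (adjusted p = 6.54e-08). mybphb and mybpc1 were higher in testis by 7.47 (SE 0.69) and 2.80 (SE 0.34), the former on 4 ovary reads in all. pvalb5 was at 6.64, 7.22 and 4.97 FPKM in testis with no read in any ovary library, at least 408-fold higher against 3 counts over the group. A tnni2a.4 copy (ENSONIG00000010786), a troponin I, was at 1.93, 1.32 and 1.37 FPKM in testis with no read in control ovary, at least 44.1-fold higher. On the ovary side, tnnt1 was lower in testis by 5.00 (SE 0.66) and tnnc2 by 2.19 (SE 0.48). Both, like myh11b, were under 1 FPKM in control testis and were tested through ovary alone. Mean levels of mybpha, another myosin-binding protein, did not pass, at 2.95, 2.01 and 2.27 FPKM in testis and 2.88, 1.89 and 2.37 in ovary.

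Suppressed testis was compared with suppressed ovary in the same way. Of 35 genes tested, 13 were higher and 9 lower in testis, where 81.1% of all 14189 genes passed, 41.3% higher and 39.9% lower. Of the higher genes, 8 were under 1 FPKM in each suppressed ovary library (the TNNT1 copy, lmod3, mybpc2a, myh14, myh7bb, pvalb4, pvalb5 and tagln3b). Among the lower, tnnc2 was under 1 FPKM in each suppressed testis library. These genes entered the test through 1 tissue alone, so they had to differ. Without suppressed testis replicate 3, 22 of the genes tested were higher and 9 lower, where 85.7% of all genes passed, 43.8% higher and 41.9% lower. Of 32 genes in both tissue tests, 10 were higher and 9 lower in both, and 0 were past the test in opposite directions. Of those past both, mybpc2a, myh14, myh7bb, pvalb5, tagln3b and tnnc2 entered each test through 1 tissue alone. Over the 13793 genes in both tests, 37.8% were higher and 37.5% lower in both. The fitted differences of myl6 (-0.24 and 0.38), the CALD1 copy (0.66 and -0.09) and desmb (-0.05 and 1.13) differed in sign between control and suppressed libraries, and none of these 3 was past the test in suppressed libraries. The ACTB difference was -3.74 in controls and -5.20 in suppressed libraries, and that of tnnc2 was -2.19 and -5.97. pvalb5, pvalb4 and the TNNT1 copy had no read in suppressed ovary and were at least 293-fold, 175-fold and 302-fold higher in suppressed testis. The TNNT1 copy overlaps dnaaf3 on the opposite strand by 5354 bases, and dnaaf3 was at 6.48 to 8.98 FPKM in suppressed testis and under 0.04 in suppressed ovary.

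**Figure D5:**
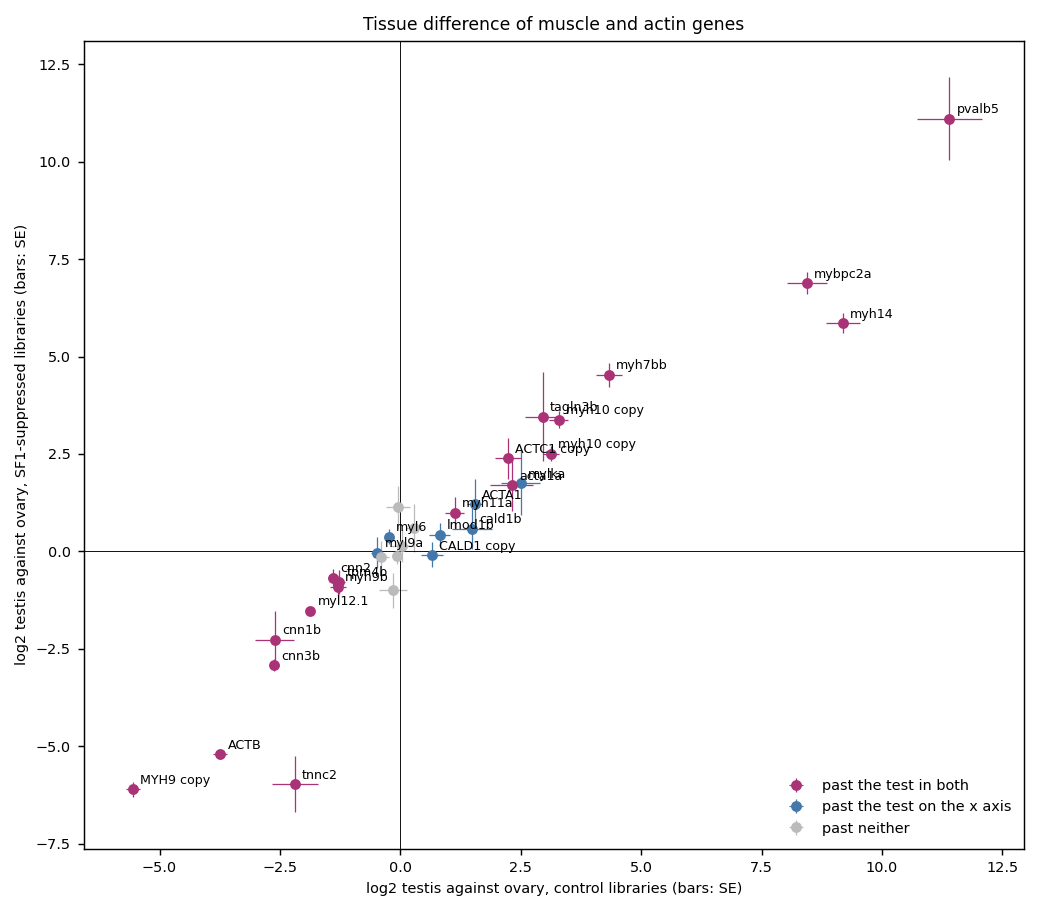
Log2 difference between testis and ovary in control libraries (x axis) and in SF1-suppressed libraries (y axis) for the 32 genes tested in both, with SE bars and colours for the tests passed. Genes past both tests lie in the lower left or upper right; the fitted value of pvalb5 has no read in ovary behind it and is not a measured size, and tnnc2 lies furthest from its control difference of -2.19, at -5.97.

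Genes that work with the contractile proteins were taken from lists by symbol. Over all genes tested, 18.1% rose and 17.9% fell in ovary, and 5.25% rose and 5.68% fell in testis. Without suppressed testis replicate 3 the testis shares were 9.72% and 10.5%. Of 18 smooth muscle and pericyte genes outside the members tested in ovary, 8 rose and 1 fell (median log2 change 0.35). They included fhl1a (1.37, SE 0.16), a LIM protein of muscle, vcla (1.62, SE 0.26), a vinculin of adhesion sites, the actin cross-linker flna (0.33, SE 0.05), palld (0.57, SE 0.10) and smtna (1.03, SE 0.23), and a PDGFRB copy fell (-0.97, SE 0.27). In testis 2 of 22 rose (cspg4 and vcla) and 1 fell (rgs5b, -2.63, SE 0.32), and without suppressed replicate 3 the counts were 9 and 2. Of 11 myogenic factors and serum response factor cofactors tested in ovary, 4 rose (pax3b, an SRF copy, srfa and myocd) and 2 fell (mef2ca and mkl2a), with a median of 0.02. SRF and its partner myocd are known activators of smooth muscle genes, a link not tested here. The SRF copy rose by 0.42 (SE 0.09, adjusted p = 0.00565), srfa by 0.26 (SE 0.07, adjusted p = 0.0125) and myocd by 0.68 (SE 0.19, adjusted p = 0.0191). In testis 0 of 21 passed by edgeR, 3 at an unadjusted p under 0.05 and 2 by DESeq2. Without suppressed replicate 3, 0 of the 21 were higher and 3 lower by edgeR (median log2 change -0.14).

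Among 49 genes of actin turnover tested in ovary, 10 fell and 4 rose, with a median of -0.09, where 17.9% of all genes fell and 18.1% rose. An ARPC4 copy (0.59, SE 0.07) and an arpc3 copy (0.48, SE 0.14), subunits of the filament-branching Arp2/3 complex, rose. A second ARPC4 copy (-0.32, SE 0.06), arpc1b (-1.12, SE 0.26), the severing proteins gsna (-0.80, SE 0.15) and scinla (-0.82, SE 0.15) and an RDX copy (-0.40, SE 0.07) fell. In testis 1 of 56 rose (coro1ca) and 1 fell (pls1, -2.57, SE 0.35), and without suppressed replicate 3 the counts were 10 and 1.

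Of the striated muscle genes outside the members, 4 of 24 rose in testis, where 5.25% of all genes tested rose. unc45b, a chaperone that folds muscle myosin, went from 0.873 ± 0.0956 to 5.88 ± 1.25 FPKM (log2 2.86, SE 0.20, adjusted p = 0.000353). The others were jph1a (0.97, SE 0.15), myom1a (0.55, SE 0.12) and the enolase eno3 (0.44, SE 0.11). Without suppressed replicate 3 the counts were 6 higher and 2 lower, where 9.72% and 10.5% of all genes were. In ovary 2 of 10 rose, eno3 (0.44, SE 0.05) and the calcium pump atp2a2a (0.32, SE 0.07), and 1 fell, actn3a (-1.70, SE 0.12), an actinin named for fast fibres. Over all genes tested in ovary, 35.9% passed.

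Some markers of other cells moved alongside the smooth muscle genes, stroma in both tissues and Leydig genes in testis but not in ovary. In testis the sums of the Sertoli and leukocyte lists, given further below, also had suppressed replicates 1 and 2 above every control. The shares of all genes tested that rose and fell were 18.1% and 17.9% in ovary and 5.25% and 5.68% in testis. The testis shares were 9.72% and 10.5% without suppressed replicate 3. The stroma list, 20 genes of collagens and other matrix proteins, summed to 233.7 to 323 FPKM in control ovary and 392 to 558 in suppressed ovary. Of 16 tested in ovary, 13 rose (median 1.20), with the smallest adjusted p for dcn (1.45, SE 0.15), col1a1b (1.55, SE 0.21), col5a2a (1.36, SE 0.18), COL6A3 (1.35, SE 0.18) and col1a2 (1.55, SE 0.21), and 1 of the 20 had no read in either ovary group. In testis the stroma sum was 290, 340 and 421 FPKM in controls and 871, 735 and 299.7 in suppressed replicates 1, 2 and 3, so that replicates 1 and 2 were above all controls, as for tagln. There 2 of 18 rose (dcn and mgp) and 1 fell (postna), and without replicate 3 the counts were 8 and 1. The Leydig list of 7 genes followed in testis, at 801 to 1301 FPKM in controls and at 2239, 2289 and 749.5 in suppressed replicates 1, 2 and 3. There 3 of 7 were higher (hsd3b1, star and hsd11b2), and 6 of 7 without replicate 3. In ovary the Leydig list did not rise, with 0 of 7 higher and 1 lower (median -0.33). Its sum there was 45.9 to 60.2 FPKM in controls and 28.8 to 49.8 in suppressed libraries. The part of stroma or Leydig cells in the smooth muscle values was not tested.

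Other marker lists moved differently, or followed the smooth muscle genes only in part. Their counts stand beside 35.9% of all genes past the test in ovary and 10.9% in testis. Endothelial genes, 15 in all, summed to 77.8 to 104.5 FPKM in control testis and 40.0 to 82.9 in suppressed testis. By test, 1 of 14 rose there and 0 fell (median log2 change -0.30), and without suppressed replicate 3 the counts were 2 and 1. In ovary they summed to 40.4 to 54.4 FPKM in controls and 29.7 to 35.8 in suppressed libraries. There 2 of 9 fell (flt4, -3.13, SE 0.12, and kdr, -0.34, SE 0.09) and 0 rose, with a median of 0.19. Leukocyte genes, 9 in all, summed to 158 to 248.5 FPKM in control ovary and 155 to 215 in suppressed ovary, where 3 of 8 fell, itgb2 (-2.59, SE 0.12), csf1ra (-1.36, SE 0.28) and lcp2a (-1.03, SE 0.23). Oocyte genes summed to 2304 to 2483 FPKM in control ovary and 2908 to 2993 in suppressed ovary, with 4 of 5 higher. Germ cell genes, 12 in all, summed to 883 to 897 FPKM and 1157 to 1169 there, with 5 of 11 higher and 2 lower. In testis they summed to 3671, 3436 and 3258 FPKM in controls and to 4344, 4084 and 5339 in suppressed replicates 1, 2 and 3, with 1 of 12 higher and 2 lower. Replicate 3, low in smooth muscle genes, was the highest library for germ cell genes. Sertoli genes, 12 in all, summed to 1592, 1613 and 1690 FPKM in control testis. In suppressed testis replicates 1, 2 and 3 they summed to 2156, 1973 and 1174, with 1 of 12 higher and 3 lower. Leukocyte genes summed to 206, 244 and 249 FPKM in control testis. In suppressed testis replicates 1, 2 and 3 they summed to 307, 361 and 219, and 0 of 7 passed the test. Erythrocyte genes were at most 23.1 FPKM in sum in any library, and 1 of 4 fell in testis (alas2, -1.35, SE 0.32).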

How the data were processed

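Per the file headers, the deposited table held expected counts and FPKM for 12 libraries. The counts are the authors' estimated read counts per gene, whole numbers without normalisation. The FPKM are the authors' values relative to gene length and library size, and a count of 0, listed at 0.0001 FPKM, is given here as 0. HISAT and StringTie are named in the submitters' processing notes. For the genome build, annotation release and strand setting, nothing was given in the sources used here, and reads of genes on opposite strands that overlap cannot be told apart.

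Genes at 1 FPKM or above in 3 or more libraries of the comparison were tested on the counts with edgeR 4.0.16 (TMM scaling, quasi-likelihood F test) in R 4.3.3, and p-values were adjusted by Benjamini-Hochberg over all genes tested. Each comparison used its own 6 libraries, and the difference between the testis and ovary changes used all 12. The SE was derived from F. The scripts were tested on simulated data. DESeq2 1.42.0, other scalings, no filter, a replicate block and leaving out each library were alternatives. Total counts of 36.8 to 60.5 M leave the spread between libraries as the main error for abundant genes. Bounds against 3 counts cover counting error only.

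The members and lists were chosen with earlier results of these data known. All members past a test of the labels or of its difference between tissues were named, with the 2 highest of each role class, up to 3 per class and direction between control tissues, and up to 5 per list and direction of partner genes by adjusted p. Symbols shared by several genes are called copies, and their reads are less certain. Replicate numbers were not taken to pair libraries, since same-numbered libraries did not deviate together. With 3 libraries in a group this cannot settle whether they pair. Results of 1 partner list are not reported here.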

Additional observations from a re-analysis of the deposited data

Results flagged for a closer look

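The change in libraries labelled SF1-suppressed differed between testis and ovary for 7 of the 45 genes tested, by edgeR's interaction test over 12 libraries. That is 15.6%, near the 15.5% of all genes tested. The 45 include genes with no read in any ovary library, whose tests could not pass. The log2 difference, testis change minus ovary change, was -1.51 for ACTB, -3.38 for myh14, 1.81 for myh11b, -3.84 for tnnc2, 3.77 for mybpc3, -3.55 for mybphb and 3.17 for mybpc2b. For ACTB the control libraries of both tissues held ample reads. tnnc2 and myh11b were under 0.6 FPKM in every testis library. For myh14, mybphb and mybpc2b the ovary held at most 41 counts in a library, so their fitted sizes depend on how counts near 0 are treated. mybpc3 had 81, 100 and 161 counts in control ovary and 0, 4 and 0 in suppressed ovary.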

How the results depend on the processing

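No gene past a test reversed its direction under the alternatives run for it. myh9b in testis, not past the test, moved from -0.22 to 0.03 (log2) without suppressed replicate 3. Median-of-ratios scaling kept all 10 counts of members past a test within 1.5 times of those reported, as did total-count scaling. Without the FPKM filter the count rose to 38 higher in control testis against control ovary and to 28 higher in suppressed testis against suppressed ovary, where more genes were tested. DESeq2 called 5 higher for the difference between the tissue changes. Leaving out each library gave 1 to 15 higher and 1 to 7 lower in testis, 11 to 14 higher and 4 to 5 lower in ovary, 19 to 21 higher and 12 to 14 lower between control tissues, 10 to 22 higher and 6 to 9 lower between suppressed tissues, and 1 to 9 higher and 3 to 5 lower for the difference. The cause was not tested. Shares of all genes are given only for the fits without suppressed testis replicate 3. In the other fits a change particular to these genes cannot be told from one over all genes.

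With the replicate block, the count fell to 1 higher and 1 lower in testis (lmod3 and ACTB) and to 1 higher and 2 lower for the difference between tissue changes, and the ovary gave 13 higher and 4 lower. The numbers do not pair the libraries, since correlations of same-numbered deviations ran from -0.38 to 0.11. Genes under about 1 FPKM, including most troponins and sarcomeric myosins, were left untested by the filter chosen.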

Other observations

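Several scarce members sit side by side in the genome (scaffold coordinates as in the deposited table, build not given). The 6 genes named tnni2a lie within 2397189 to 2444016 of scaffold GL831139.1. In control testis 2 of them, ENSONIG00000010785 and ENSONIG00000010786, were at 0.916 to 1.93 FPKM, and the latter stood at 0.679, 0.568 and 0 in suppressed testis without passing the test (adjusted p = 0.206). In suppressed testis their neighbour tnni2a.2 was at 0.721, 0.773 and 1.63 FPKM against 0.175, 0.266 and 0.275 in controls. That gene was in no test and was named after its values were seen.

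pvalb4 and pvalb9 are neighbours on scaffold GL831136.1, between 6737431 and 6745590. pvalb9 was at 0.217, 0.478 and 0.576 FPKM in control testis and at 0.500, 1.32 and 0.872 in suppressed testis, with overlapping groups, and was also in no test.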
